A study of Caenorhabditis elegans with 2 samples.

Results

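The genes for small nuclear RNAs (snRNAs) and spliced leader RNAs of Caenorhabditis elegans were examined at sites enriched by immunoprecipitation of the T-box transcription factor TBX-9. All nuclear genes with the biotype snRNA in the Ensembl release 115 annotation of WBcel235 were taken, which gave 129 of 46890 nuclear genes. Each gene was given its strongest peak with a summit within 250 bp of the gene, in each of 4 peak lists. The strongest such peak belonged to sls-2.4, at rank 6 of the pooled list.

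Chromatin immunoprecipitation and sequencing were done on whole young adults of mixed sex, 63 h after synchronization as starved L1 larvae. The strain, OP636, has the genotype unc-119(tm4063) III; wgIs636, and its integrated transgene makes TBX-9 with GFP and FLAG at its C terminus. Chromatin was sonicated, and an antibody against GFP was used. There were 2 biological replicates of 1 group, so no condition was compared, and a control experiment named in the labels was not analysed here. Whole animals hold many tissues, so a peak does not tell in which cells the tagged protein was enriched.

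Small nuclear RNAs form the core of the spliceosome, the machine that removes introns. U1 RNA recognises the 5′ splice site, U2 the branch point, and U4, U5 and U6 join later. In nematodes a short leader from a separate spliced leader RNA is joined to the 5′ end of many mRNAs. SL1 RNA serves most trans-spliced genes, and SL2 RNA and its variants mainly serve the downstream genes of operons. Most of these RNA genes are transcribed by RNA polymerase II, without introns or poly(A) tails, and U6 genes by RNA polymerase III; SmY RNAs are small Sm-bound RNAs linked to trans-splicing.

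The genes were grouped by name or by sequence. There were 18 SL2 genes, named sls-2, and 12 SL1 genes, named sls-1. There were also 10 SmY genes, named smy. The rest were joined where their sequences were at least 80% identical. This gave a family of 13 around sup-6 and sup-39, loci that were found as suppressors and are known to encode U1 RNA. It also gave 4 families that the annotation does not name and that are called here by their usual length: 19 genes of 187 bases, 5 of 144 bases, 12 of 122 bases and 23 of 102 bases. Another 17 genes stood in none of these, among them mir-1831, which has the name of a miRNA, the biotype of an snRNA and a place inside sup-39.

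The genes on which the results turn are printed 5′ to 3′ on the RNA strand, from the RefSeq sequence of WBcel235 (ce11). They show the spliced leader itself and the letters that set the families apart. In the sls genes the capitals mark the bases up to the first AG followed by GT, which hold the leader that is joined to mRNAs; in sls-1.10 the annotated gene starts with a C that is not part of the known SL1 leader. In sup-6 the capitals mark ACTTACC, known in U1 RNA as the letters that pair with the 5′ splice site.
sls-2.2 (chrII:5543598-5543707, plus strand): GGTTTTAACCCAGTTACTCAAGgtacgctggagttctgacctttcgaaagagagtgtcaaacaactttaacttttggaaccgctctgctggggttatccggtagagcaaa
sls-2.16 (chrIII:7141391-7141499, plus strand): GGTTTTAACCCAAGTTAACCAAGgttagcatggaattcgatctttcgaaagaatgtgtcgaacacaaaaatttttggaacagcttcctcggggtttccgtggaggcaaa
sls-2.18 (chrIII:7142291-7142397, plus strand): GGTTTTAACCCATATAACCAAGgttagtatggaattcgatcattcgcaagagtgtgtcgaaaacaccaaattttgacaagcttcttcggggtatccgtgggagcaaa
sls-2.10 (chrIV:9130721-9130829, minus strand): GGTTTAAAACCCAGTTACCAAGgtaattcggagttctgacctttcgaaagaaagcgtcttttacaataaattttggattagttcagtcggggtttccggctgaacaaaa
sls-1.10 (chrV:17120694-17120791, minus strand): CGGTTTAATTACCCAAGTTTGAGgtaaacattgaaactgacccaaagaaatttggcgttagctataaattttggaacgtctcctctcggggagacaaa
sup-6 (chrII:12944803-12944967, minus strand): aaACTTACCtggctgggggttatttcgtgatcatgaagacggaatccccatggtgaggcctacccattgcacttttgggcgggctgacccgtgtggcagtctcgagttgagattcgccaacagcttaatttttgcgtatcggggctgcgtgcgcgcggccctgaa

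The letters ACTTACC were found in 12 of the 13 genes of the sup-6 family and in no other gene of the 129. GTAGTAT, known in U2 RNA as the letters that pair with the branch point, was found in 18 of 19 genes of the 187-base family and in W07G1.24, which is in no family. CTTTTAC, known from the loop of U5 RNA, was found in 11 of 12 genes of the 122-base family and in 2 SL2 genes. These matches describe the sequence and are no annotation of the genes. Among the 18 SL2 genes there were 18 distinct gene sequences, with a median pairwise identity of 78.2%, whereas the 12 SL1 genes had 2 distinct sequences.

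A peak's signal value is the authors' own, its scaling is not stated, and the lists differ in their highest value. The strongest nuclear peak had a signal of 304.5 in the pooled list, 180.6 in replicate 1 and 127.6 in replicate 2. Peaks are therefore compared between lists by their rank among nuclear peaks, where rank 1 is the strongest. The relaxed lists held 29990 nuclear peaks for the pooled libraries, 25645 for replicate 1 and 30000 for replicate 2. They are labelled as peaks and background for input to a later filter, and every entry is called a peak here. Their lowest −log10 q was 0.02 in the pool, 0.018 in replicate 1 and 0.058 in replicate 2. An entry of low rank therefore need not be an enriched site. A shorter list, labelled as the optimal peaks after a threshold on the irreproducible discovery rate (IDR), held 169. A place in it is not the same as a high rank in both replicates. The pooled and IDR lists were made from the same 2 libraries, so they are no further replicates.

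The snRNA genes lay at strong peaks more often than nuclear genes in general. Of the 129 genes, 15 (11.6%) had one of the 500 strongest pooled peaks, against 1.9% of all nuclear genes. The count was 8 (6.2%) in replicate 1, against 1.77%, and 14 (10.9%) in replicate 2, against 1.72%. In both replicates at once it was 6 genes (4.65%), against 0.859%. These 6 were sls-2.4, W05B2.8, sup-6, F54D8.7, sls-2.8 and sls-2.2. An IDR summit was found at 4 genes (3.1%), sls-2.4, W05B2.8, sup-6 and sls-2.16, against 0.64% of all nuclear genes. F54D8.7, sls-2.8 and sls-2.2 had none, though strong in both replicates, whereas sls-2.16 ranked 1022 in replicate 1. The shares are descriptions and were not tested, since genes share peaks and there is 1 group.

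Any peak at all did not clearly set these genes apart. A pooled summit lay within 250 bp of 71 genes (55.0%), against 35.5% of all nuclear genes. The counts were 58 (45.0%) in replicate 1, against 32.9%, and 68 (52.7%) in replicate 2, against 35.4%. The shares over all nuclear genes are lowered by 15363 piRNA genes, of which 4.44% had a pooled summit. In the replicates it was 6% and 3.76% of them. By the same rule in the pooled list snoRNA genes reached 51.2%. Protein-coding genes reached 59.6%, and they span more sequence. Of the 129 genes, 50 had no peak in any list and 48 had a peak in both replicates.

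Among other noncoding classes, a strong pooled peak lay at 26% of 612 tRNA genes and at 15.3% of 346 snoRNA genes, both above the snRNA share. It lay at 2.41% of coding genes and at 1.15% of miRNA genes. Of the 15363 piRNA genes it lay at 0.0391%, which lowers the share over all nuclear genes. The order of tRNA, snoRNA and snRNA genes was the same in both replicates, but the snRNA share of replicate 1 was well under that of replicate 2.

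**Figure D1:**
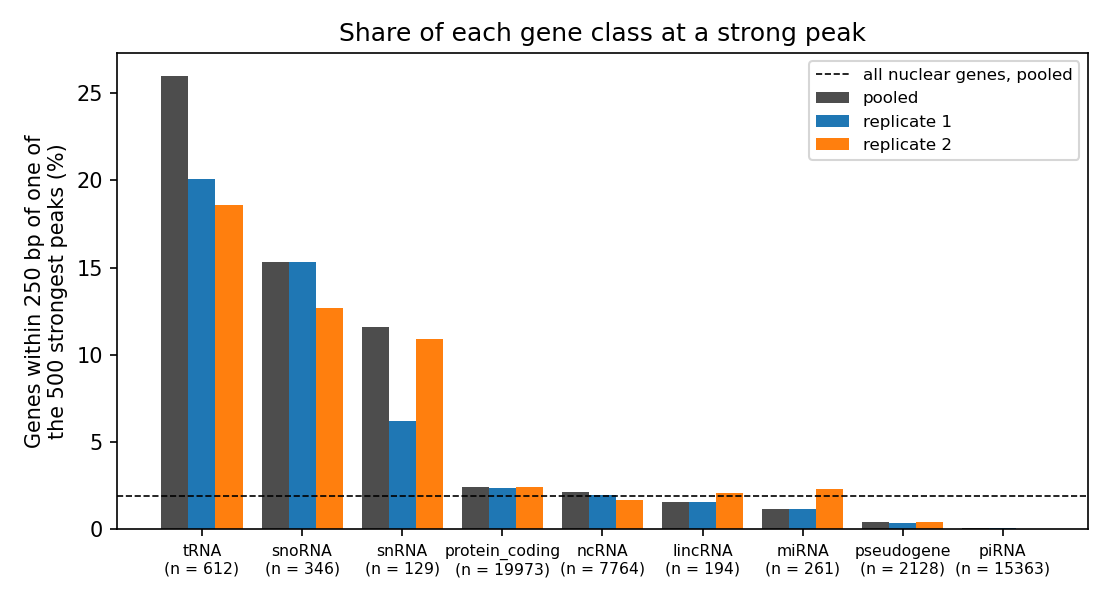
Share of the genes of each annotated class, in percent, that had one of the 500 strongest nuclear peaks of a list within 250 bp, for the pooled list and each replicate. The dashed line is the 1.9% of all nuclear genes in the pooled list; snRNA genes stood at 11.6% pooled, 6.2% in replicate 1 and 10.9% in replicate 2.

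The families differed widely. SL2 genes made up 9 of the 15 genes with a strong pooled peak, from 18 genes, and 17 of the 18 had some pooled peak. These 15 genes had 14 distinct peaks, since sup-39 and mir-1831 share one. In the replicates alone, 4 of the 8 strong genes of replicate 1 and 7 of the 14 of replicate 2 were SL2 genes. The sup-6 family gave 3 of its 13 genes in the pool and the 102-base family 2 of 23. The 187-base, 144-base, 122-base and smy families gave none, with best pooled ranks of 510, 566, 686 and 9411. The 12 SL1 genes, known to stand in a tandem array with 5S rRNA genes on chromosome V, had no peak in any list.

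**Figure D2:**
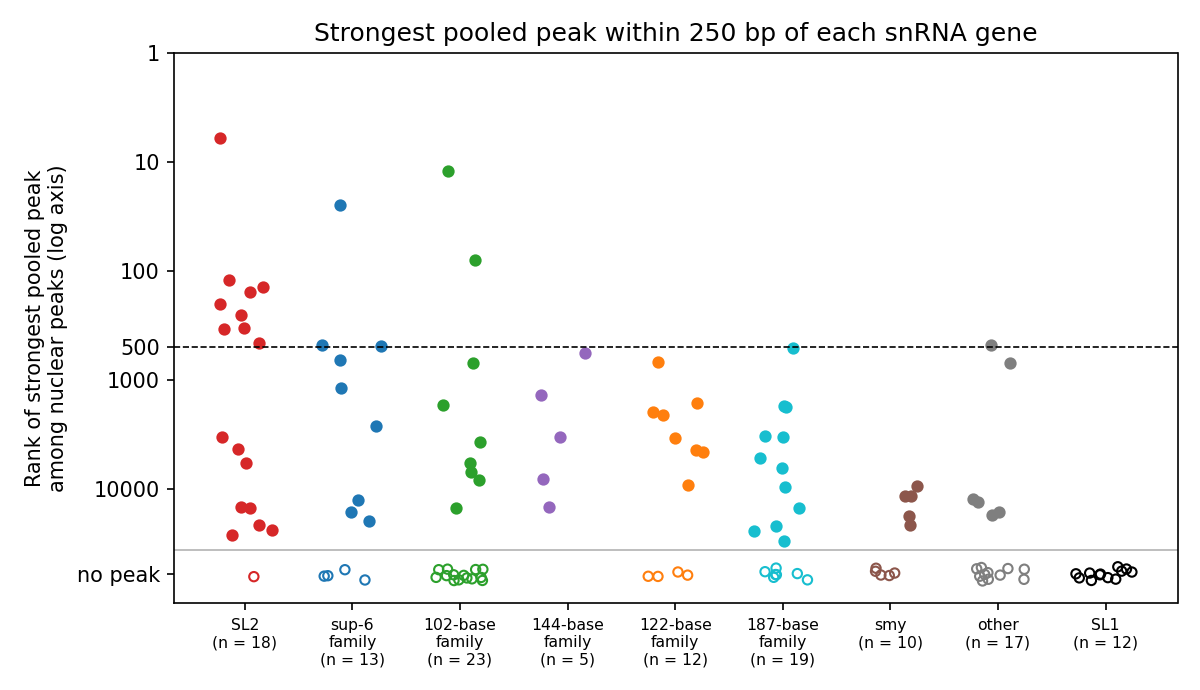
Rank of the strongest pooled peak within 250 bp of each of the 129 snRNA genes, by family, on a log axis with the strongest peaks at the top. Open circles are genes without a pooled peak and the dashed line is rank 500; the 9 SL2 points above it and the 12 open SL1 points lie at the 2 ends.

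The strongest peak of the SL2 genes lay at sls-2.4 on chromosome I, whose leader is shared with 3 other SL2 genes. Its signal was 158.3 in replicate 1 (rank 4), 74.0 in replicate 2 (rank 13) and 231.3 in the pool (rank 6). The IDR peak there had a signal of 238.4 and rank 6 of 169. Both replicates thus placed this gene among their highest peaks. Its closest coding start, that of egg-5, lay 789 bp from the pooled summit, and an annotated noncoding RNA, R12E2.18, runs over it on the opposite strand.

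Of the 6 SL2 genes on chromosome III, 5 had a top 500 pooled peak, at ranks 120 to 462. The peak of sls-2.8 had a signal of 54.2 in replicate 1 (rank 220) and 52.5 in replicate 2 (rank 75). That of sls-2.16 had 36.7 in replicate 1 (rank 1022) and 56.4 in replicate 2 (rank 50), and it also lay under an IDR peak of signal 108.2 at rank 153. So the rank of sls-2.8 was high in both libraries and that of sls-2.16 in replicate 2 alone. The neighbours sls-2.14 and sls-2.15 ranked 1083 and 522 in replicate 1 and 242 and 268 in replicate 2. For sls-2.5 the ranks were 854 and 1313, outside the top 500 of each replicate though at rank 462 in the pool. The sixth gene, sls-2.18, had no peak within 250 bp in any list. The nearest pooled summit lay 304 bp from it and the nearest IDR summit 687 bp.

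On chromosome II, sls-2.2 had a signal of 71.2 in replicate 1 (rank 73) and 44.2 in replicate 2 (rank 159). On the same chromosome, sls-2.1 had 41.2 (rank 631) and 52.5 (rank 76). The third gene there, sls-2.3, has the same leader as sls-2.2 and lies 456 bp from it, with the 3′ ends facing each other. It ranked 14800 in the pool, 10752 in replicate 1 and 14613 in replicate 2. With the 250 bp limit, a shared leader did not go with a shared rank. The 4 genes sls-2.1 to sls-2.4, which carry 1 leader, spanned pooled ranks 6 to 14800, and 3 of them were in the top 500. The low rank of sls-2.3 rests on that limit: its pooled peak overlaps that of sls-2.2, and the 2 summits lay 200 bp apart. Within 500 bp the stronger peak of sls-2.2 also falls to sls-2.3, and 10 SL2 genes were strong in place of 9.

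On chromosome IV none of the 5 SL2 genes had a strong peak in any list, and their pooled ranks ran from 4255 to 26258. They are sls-2.10, sls-2.11, sls-2.12, sls-2.13 and sls-2.17, which encode SL2 variants with leaders of 21 or 22 bases. On chromosome I, sls-2.6 and sls-2.7 ranked 14722 and 3305. The remaining gene on chromosome I, sls-2.9, ranked 339 in the pool, 219 in replicate 1 and 2064 in replicate 2. Its summit lay before the gene, within 250 bp of the tRNA gene M01E5.t1, and it was the only one of the 15 strong genes with a tRNA or snoRNA gene at its summit. The part of that tRNA gene in the peak was not tested.

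The U1 gene sup-6 had a signal of 87.2 in replicate 1 (rank 36), 75.2 in replicate 2 (rank 11) and 152.6 in the pool (rank 25). Its IDR peak had a signal of 148.4 and rank 44. The gene lies inside the coding gene F58G1.7, whose start is 3486 bp from the summit. The other members had far lower ranks. sup-39, whose sequence is 97.6% identical, had 39.9 in replicate 1 (rank 719) and 29.9 in replicate 2 (rank 730), and it shares its pooled peak at rank 476 with mir-1831. H27M09.6 had 34.6 in replicate 1 (rank 1296) and 34.6 in replicate 2 (rank 404). T08G5.11 had 24.3 in replicate 1 (rank 5216) and 45.4 in replicate 2 (rank 148), the widest gap between the libraries in this group of 4. For H27M09.6 a coding start, that of H27M09.5, lay 57 bp from the summit.

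In the 102-base family, W05B2.8 had a signal of 113.7 in replicate 1 (rank 12), 59.5 in replicate 2 (rank 35) and 171.8 in the pool (rank 12). F54D8.7 had 68.8 (rank 80), 44.1 (rank 162) and 110.9 (rank 79). Both were strong in both libraries, and W05B2.8 also had an IDR peak, of signal 183.3 and rank 11. W05B2.8 is 1 of 14 genes with the same sequence, of which 5 had a pooled peak. The next of them was Y9C9A.111 at rank 699, followed by C28A5.7 at 1706, K09C6.12 at 5731 and R07E5.16 at 6968. The 2 genes identical to F54D8.7, Y17G9A.85 and T08B6.62, ranked 3708 and 8266. Identical genes thus ranked from 12 to none.

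Of the 9 identical copies without a pooled peak, 8 lay beside sequence that recurs elsewhere in the genome. There, 39.5% to 74.4% of the positions in the 250 bp before the gene started a 36-base word found more than once, against at most 8.84% for the 5 copies with a pooled peak. The sources used here do not state how the authors treated reads that match several places. The part of repeated sequence in these gaps was not tested. The same measure was 100% in the median SL1 gene, for the gene and for both flanks. Over all families, the stretch after the gene was repeated by more than 50% in 15 of the 50 genes without any peak, 12 of them SL1, and in 1 of the 79 with a peak.

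The remaining families had weaker peaks. Y57G11C.35, of the 187-base family, had a signal of 39.6 in replicate 1 (rank 746) and 30.8 in replicate 2 (rank 656). Y54G9A.8 and F11A5.14 followed at pooled ranks 1743 and 1766. C52E4.8, of the 144-base family, had 44.6 (rank 468) and 21.3 (rank 3046). Its pooled summit lay 17 bp after the gene and 555 bp from the start of snr-4, which encodes an Sm protein. It is also the strongest pooled peak within 1000 bp of that start. All 5 genes of that family had a pooled peak, at ranks 566 to 14732.

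ZK897.3, of the 122-base family, had 37.3 (rank 950) and 25.8 (rank 1401), and its summit lay before the gene. ZK897.4, in the same cluster on chromosome IV, had no peak in replicate 1 and rank 367 in replicate 2. Among the smy genes, smy-6, smy-1 and smy-5 had the strongest pooled peaks, at ranks 9411, 11480 and 11529. None of the 10 smy genes reached the top 500 in any list. M163.13, in no family, had 28.9 (rank 2678) and 34.3 (rank 421), at pooled rank 702.

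Over the 48 genes with a peak in both replicates, Spearman's rho of the signal was 0.694, as a description across genes that share libraries. The median distance between the summits of the replicates was 68 bp, and 22 of the 48 lay within 50 bp. For the 12 SL2 genes with both, rho was 0.629 and the median distance 46.5 bp. Of the 15 strong genes, 8 ranked higher in replicate 1 and 7 in replicate 2, so neither library ranked all of them higher. The 8 include both sup-39 and mir-1831, which share a replicate 1 peak.

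**Figure D3:**
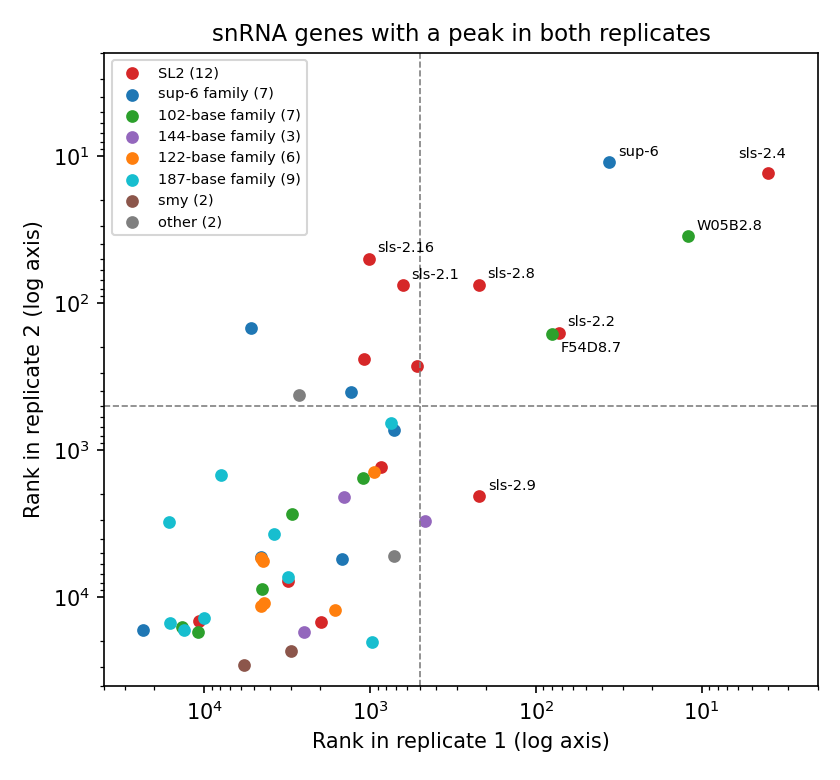
Rank of the strongest peak within 250 bp of the gene in replicate 1 and in replicate 2, on log axes with the strongest at the top right, for the 48 snRNA genes with a peak in both. Dashed lines mark rank 500; the 6 genes above and to the right of both lines are strong in both replicates.

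In the pooled list, most strong peaks at snRNA genes were centred after the gene. Of the 15 genes with a top 500 pooled peak, the summit lay after the 3′ end in 12, inside the gene in 2 and before the 5′ end in 1. The 15 genes have 14 distinct peaks. Among the 12, sup-39 and mir-1831 are counted separately although they share the pooled and the replicate 1 summit. Of the strong tRNA genes, 37 of 159 had the summit after the gene, and of the strong snoRNA genes 6 of 53, with 32 before it. Over all nuclear genes at such peaks the counts were 283 after, 422 inside and 188 before, of 893. Among the strong peaks of each replicate alone, the summit lay after the gene in 5 of 8 in replicate 1 and in 8 of 14 in replicate 2. In the 12 genes, the replicate 1 summit lay after the gene in 12 and the replicate 2 summit in 10. Nearly all peaks had 1 width, 390 bp, with the summit at the middle, so the side is that of the centre of a wide interval. The interval overlapped the gene itself in 14 of the 15.

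For SL2 genes, 8 of the 9 strong pooled summits lay 44 to 112 bp after the 3′ end. Their replicate 1 summits all lay after the gene, and 7 of 8 did so in replicate 2, where that of sls-2.2 lay 14 bp inside. For sls-2.4 the pooled summit was 63 bp after the gene, the replicate summits 21 and 66 bp after it, and the IDR summit 23 bp inside it. Its pooled peak was among the few that were narrower than the rest.

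The divergent pair sls-2.14 and sls-2.15 has 486 bp between the genes, and its 2 pooled summits lay 884 bp apart, each on the outer side. In the divergent pair sls-2.5 and sls-2.16, with 837 bp between the genes, the summits lay 1245 bp apart, again on the outer sides. In the pair sls-2.2 and sls-2.3, which face each other, the summits lay between the genes. With the weaker peaks included, 14 of the 17 SL2 genes with a pooled peak had the summit after the gene.

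The 3 strong genes of the sup-6 family had it after the gene too, by 31 bp at sup-6, 79 bp at sup-39 and 121 bp at H27M09.6. At sup-6 the replicate 1 summit was at the same base and that of replicate 2 lay 8 bp inside. In the 102-base family the strong pooled summits lay inside the gene, 14 bp from the end in W05B2.8 and 64 bp from it in F54D8.7, and the replicate 2 summits lay before both genes. The pooled peak of W05B2.8 was narrower than most, and its summit lay just outside its own interval, the only such peak in the pooled list. The replicate 1 and IDR peaks there, of the usual width, had the summit at the same base. So the place of the summit differed between the families with strong peaks. These counts are small and were not tested.

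**Figure D4:**
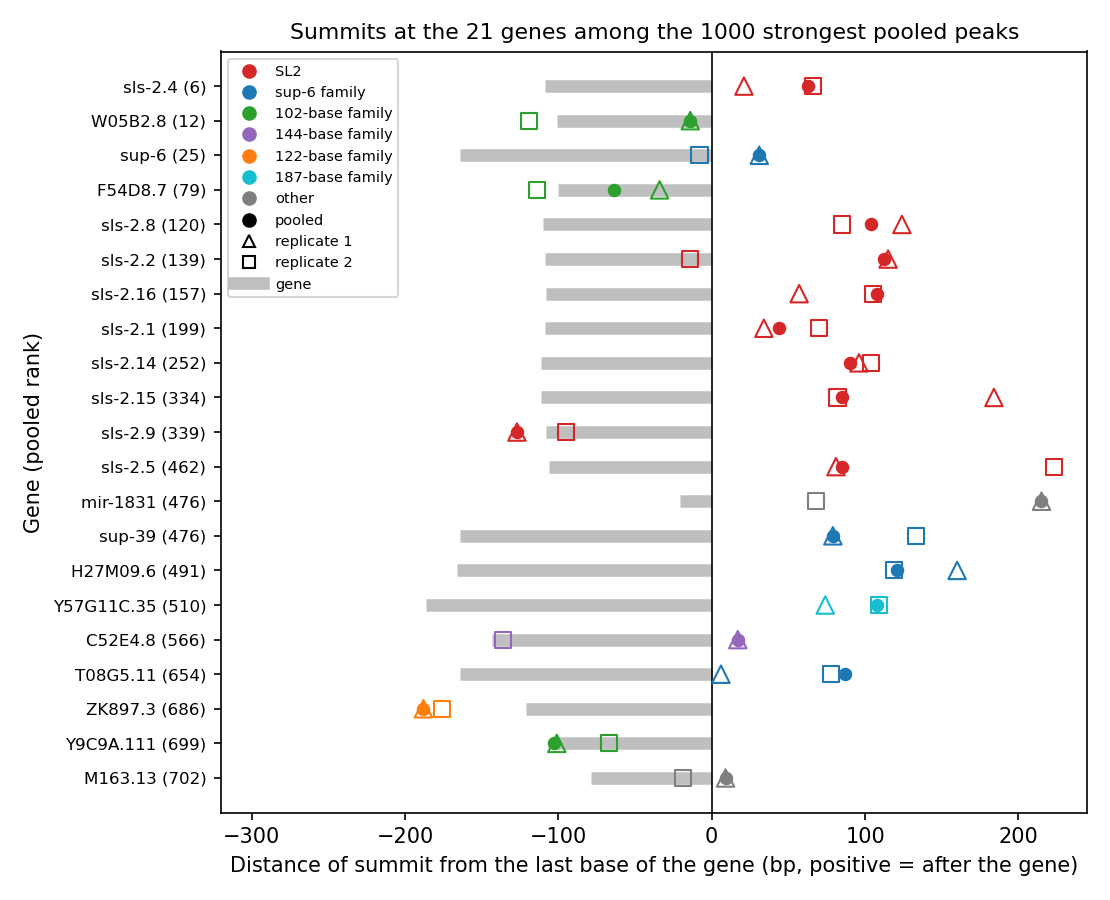
Distance of the summit from the last base of the gene, in bp, for the 21 snRNA genes with one of the 1000 strongest pooled peaks, in order of pooled rank. Grey bars are the genes, filled circles the pooled summit, triangles replicate 1 and squares replicate 2. The pooled summit lay after the gene in 16 of the 21, which have 20 distinct peaks since sup-39 and mir-1831 share one.

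The sequence between the end of the gene and the pooled summit is printed for sup-39 and sls-2.1, strong genes of different families on chromosome II with the summit after the gene in the pool and in both replicates. At sls-2.1 the pooled summit lay 44 bp after the gene, that of replicate 1 34 bp and that of replicate 2 70 bp. Capitals mark the last 20 bases of the gene, and the run ends at the summit base, on the RNA strand of WBcel235 (RefSeq).
sup-39 (chrII:6968315-6968413, minus strand): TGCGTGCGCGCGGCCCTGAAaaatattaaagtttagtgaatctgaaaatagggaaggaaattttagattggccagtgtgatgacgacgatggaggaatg
sls-2.1 (chrII:5844955-5845018, plus strand): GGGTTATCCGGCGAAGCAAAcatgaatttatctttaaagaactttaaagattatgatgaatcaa

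Other annotated genes lay close to many of these summits. A coding start lay within 1000 bp of the summit in 7 of the 15 strong genes and in 41 of the 71 with a pooled peak. The summit lay inside a coding gene in 9 of the 15 and in 38 of the 71. At sls-2.8 it lay 19 bp from the start of Y75B8A.23. An annotated noncoding RNA overlapped 39 of the 129 genes, 38 of them on the opposite strand, and 6 of the 15 strong genes. The same shares over all pooled summits are not given here, so these counts do not show whether such closeness is unusual. The part of these neighbours in the peaks was not tested.

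T-box factors are known to bind the letters GGTGTGA. This word, on either strand, was within 100 bp of 0 of the 70 distinct pooled summits at snRNA genes, against 1.73% of all 29990 nuclear pooled summits. The shorter word GGTGTG, which is part of it, was there in 3 of 70 (4.29%), at smy-6, F10D2.13 and W04G5.11, against 6.07%. Those 3 genes had pooled ranks of 9411, 8043 and 9506. These letters were thus absent from the windows of the 15 strong genes. With shares of 1.73% and 6.07% over all summits, so few genes cannot show a difference.

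A region upstream of snRNA genes, the proximal sequence element, is known to recruit their own transcription complex. In the 61 bases from 90 to 30 before the start, 2 words of 6 letters were the most frequent among the 115 distinct windows of the snRNA genes, and they were chosen for that reason. AACCCG, on either strand, was in 43 of 129 windows (33.3%), against 1.06% of all nuclear genes. TGTCGG was in 41 (31.8%), against 1.32%. The SL2 genes had them in 10 and 11 of 18, the sup-6 family in 8 and 7 of 13, and the SL1 genes in none of 12. All 12 genes of the 122-base family had AACCCG, and 14 of 19 of the 187-base family had TGTCGG, while neither family had a strong pooled peak.

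Of the 15 strong genes, 8 had AACCCG and 7 had TGTCGG, and of the 58 without a pooled peak 12 and 6. These groups differ in their families: 9 of the 15 are SL2 genes. The 58 include all 12 SL1 genes and 14 of the 102-base family, which had the words in 5 and 1 of 23. The part of family make-up in these counts was not tested. The windows of 4 genes are printed to show how the words sit together, in capitals, in 3 of them; W05B2.8, with one of the highest ranks, has neither.
sup-6 (chrII:12944997-12945057, minus strand): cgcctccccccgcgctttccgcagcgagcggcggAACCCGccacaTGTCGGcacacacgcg
sls-2.16 (chrIII:7141301-7141361, plus strand): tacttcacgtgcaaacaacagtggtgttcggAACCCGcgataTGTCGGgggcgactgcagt
T08G5.11 (chrV:14028665-14028725, minus strand): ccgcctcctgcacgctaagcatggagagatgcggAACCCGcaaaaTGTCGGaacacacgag
W05B2.8 (chrIII:10989589-10989649, plus strand): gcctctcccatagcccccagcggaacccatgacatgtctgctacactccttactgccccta

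Genes whose products build or use these RNAs were examined as well. Of 79 listed genes 69 were found in the annotation, and 2 (2.9%) had an IDR summit up to 1000 bp from a transcript start, against 0.501% of coding genes. They were ints-8, of the Integrator complex that cuts the 3′ ends of snRNAs, with pooled rank 3, and lsm-8, of the LSm ring of U6, with pooled rank 358. Strong pooled peaks lay at 4 of the 69 (5.8%), against 1.67% of coding genes; the others were snr-1, an Sm protein, at rank 193 and snrp-200, a spliceosomal helicase, at rank 420. The replicates ranked ints-8 at 2 and 3, lsm-8 at 1093 and 193, snr-1 at 2313 and 37 and snrp-200 at 914 and 346. So ints-8 alone was high in both, and its pooled summit lies inside rpr-1, the gene for the RNA of RNase P, which stands within ints-8.

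By list, 1 of 11 Integrator genes and 1 of 15 Sm and LSm genes had an IDR summit, and none of 19 U snRNP proteins, 6 assembly and export factors, 13 factors of snRNA transcription or 5 trans-splicing proteins did. The best pooled rank was 1339 for the transcription factors and 18417 for the trans-splicing proteins. The median pooled rank over the 51 listed genes with a peak was 6310, against 11377 for the 10281 coding genes with one.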

How the data were processed

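Peak lists of 2 ChIP-seq libraries, biological replicates of 1 group, were analysed on ce11; the ce10 lists were not analysed here and no coordinate was converted. Per the deposited text files, relaxed peaks were called for each replicate and for the pool, and IDR peaks from these. The names of the aligner and peak caller were not given in the sources used here. Peak signal is the authors' deposited value, from column 7 of each list. The deposited −log10 q values and summit offsets are the authors' as well. The q values were not used as a filter. Sequencing depth is unknown, so no interval that needs it is given.

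Summits were placed at start plus offset, counted from 1, and peaks were ranked by signal within each list among nuclear peaks. Genes came from Ensembl release 115, and names from RefSeq by WormBase identifier, 129 of 129 matched. Families were joined at 80% identity over the longer gene. The rule for genes named in the text took those with an IDR summit, the 20 highest pooled ranks, up to 3 of each family, identical copies, pathway genes with an IDR summit and neighbours that share a peak; other genes were named after their values were seen. The members, gene lists and words were chosen with earlier results of these data known. The pooled distance limit of 250 bp fell between smy-1 (206 bp) and T27E4.22 (259 bp), and 6 genes lay within 100 bp beyond it. The gene sequences of the 102-base family are not reported here. Assignment was tested on simulated summits. Scripts ran under Python 3.11.15, with scipy 1.17.1, pandas 2.3.3, numpy 2.4.6, Biopython 1.88 and matplotlib 3.10.9.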

Additional observations from a re-analysis of the deposited data

How the results depend on the processing

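Of 47 alternatives, 34 stayed within 1.5 times a count, or within the spread of a value, 13 moved further and 0 reversed. The spread was the replicate SD, or for rho the distance from it to the upper end of its 95% interval. The 34 include falls within 100 bp from 71 to 59 genes with a pooled summit, from 15 to 10 strong genes, from 6 to 4 strong in both replicates and from 9 to 6 SL2 genes. With the replicate lists alone, in the range over both, genes at the 169 strongest peaks numbered 5 to 9 (4 at IDR summits), genes at a strong peak 8 to 14 (15 pooled), SL2 genes at a strong peak 4 to 7 (9), strong genes with the summit after the 3′ end 5 to 8 (12), the median summit distance from the 5′ end 153 to 163 bp (162) and that of SL2 genes after the 3′ end 70 to 71.5 bp (85). Replicate 1 alone gave the lower value for each count of genes and the higher value for both distances. Among the 200 strongest peaks there were 8 genes, and with 1000 there were 10 strong in both replicates (6 with 500). With the 1000 strongest alone the summit lay a median of 195 bp from the 5′ end. Within 100 bp, rho was 0.559 and 7 strong genes had the summit after the gene. Within 500 bp of a transcript start, 0 pathway genes had an IDR summit (2 within 1000 bp). The cause was not tested. The SL2 and summit side alternatives were chosen after seeing the data. No paired analysis was possible because there was 1 group.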
